A study of Rattus norvegicus with 32 samples.

Results

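Bisphenol A (BPA) at its lowest dose was compared with the vehicle in the rat uterus, over all genes of the deposited count table. The 4 BPA 2.5 libraries and the 4 control libraries were taken from the group label of each sample, 8 of 32 libraries in the series. Exposed Sprague-Dawley rats of the NCTR breeding colony received 2.5 µg BPA per kg body weight per day by gavage, and controls received 0.3% carboxymethylcellulose, the vehicle that every group shared. Dams were dosed from gestation day 6 until labor, pups were dosed directly from postnatal day (PND) 1, and the uterus was collected at PND365. The other groups, 4 libraries each, received BPA at 25, 250, 2500 or 25000 µg or ethinyl estradiol (EE2), a synthetic estrogen, at 0.05 or 0.5 µg per kg per day. Total counts of the 8 libraries lay between 11777809 and 14769896. Genes of uterine cell types, none of them particular to the uterus, were present in each of them. In CPM, counts scaled to equal library size, the epithelial keratin Krt8 was at 163 or more, smooth muscle actin Acta2 at 3452 or more and the progesterone receptor Pgr at 89.8 or more. The labels say nothing of separate animals, litters or the stage of the estrous cycle. A p-value here therefore reflects only the spread among libraries, pooled over all 8 groups, and that spread may be technical.

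BPA, used to make polycarbonate plastics, is a weak ligand of estrogen receptors. In the uterus, estrogen acting through the receptor gene Esr1 induces the progesterone receptor Pgr, the growth factor Igf1 in stroma and the calcium-binding protein S100g in epithelium, and drives growth of the lining. Growth draws on ribosomes, mitochondrial respiration and the synthesis of cholesterol, the precursor of all steroids. An estrogen-exposed uterine lining can also turn to a stratified squamous epithelium, with basal keratins such as Krt5 and Krt14.

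A gene was called when its adjusted p was under 0.05 in a model of all 8 groups. By that rule 940 genes were higher at BPA 2.5 (7.06% of the 13312 tested) and 584 were lower (4.39%). At an unadjusted p under 0.05 the counts were 2093 and 1473. Fold changes from that model are given on the log2 scale with their standard error after ±. The calls depended on the estimate of spread from all 32 libraries: with only the 8 libraries compared, 33 genes were higher and 24 lower, all of them shared genes, and the loss of a gene's call in that fit is not repeated below. Many of the higher calls came from 2 libraries. In 679 of the 940 genes called higher, libraries 1 and 3 of BPA 2.5 were the 2 highest of the 4, against 113 of the 584 called lower where they were the 2 lowest. All 23 tested genes of a list of motile ciliated cells were called higher. Their summed level was 2590 and 1761 CPM in BPA 2.5 libraries 1 and 3, 116 and 111 in libraries 2 and 4, and 66.2 to 85.6 in the controls. The 3 tested genes of oviduct secretory cells, 0 of them called, summed to 227, 111, 214 and 148 CPM against 73.2 to 135 CPM in the controls. In bulk tissue, more cells of a type and more RNA per cell cannot be told apart. The cell cycle kinase gene Aurkb followed the same 2 libraries, at 921, 3.16, 779 and 3.82 CPM in the BPA 2.5 libraries in order against 4.40, 2.15, 14.1 and 3.13 CPM in the controls.

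The shared pattern was therefore described over genes that met 2 further conditions: no overlap of the 4 BPA 2.5 with the 4 control libraries in log2 CPM, and a range among the BPA 2.5 libraries smaller than the difference of the group means. No overlap was seen for 858 genes on the higher side (6.45% of those tested) and 761 on the lower side (5.72%), whether called or not. The full rule left 256 shared genes higher (1.92%) and 281 shared genes lower (2.11%), and none of the 23 ciliated genes was among them. Libraries 1 and 3 of BPA 2.5 were still the 2 highest of the 4 in 100 of the 256, and the 2 lowest in 51 of the 281. Just inside the range condition lay Slc25a3, a mitochondrial phosphate carrier, with a difference of -0.70 and a range of 0.7001 in log2 CPM. Just outside lay the ribosomal gene Rps23, with -1.03 and 1.0344. The shared genes had a median log2 fold change of 1.02 on the higher side and -0.79 on the lower side, against 0.05 over all genes tested. These values chose the genes and are a description.

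**Figure D1:**
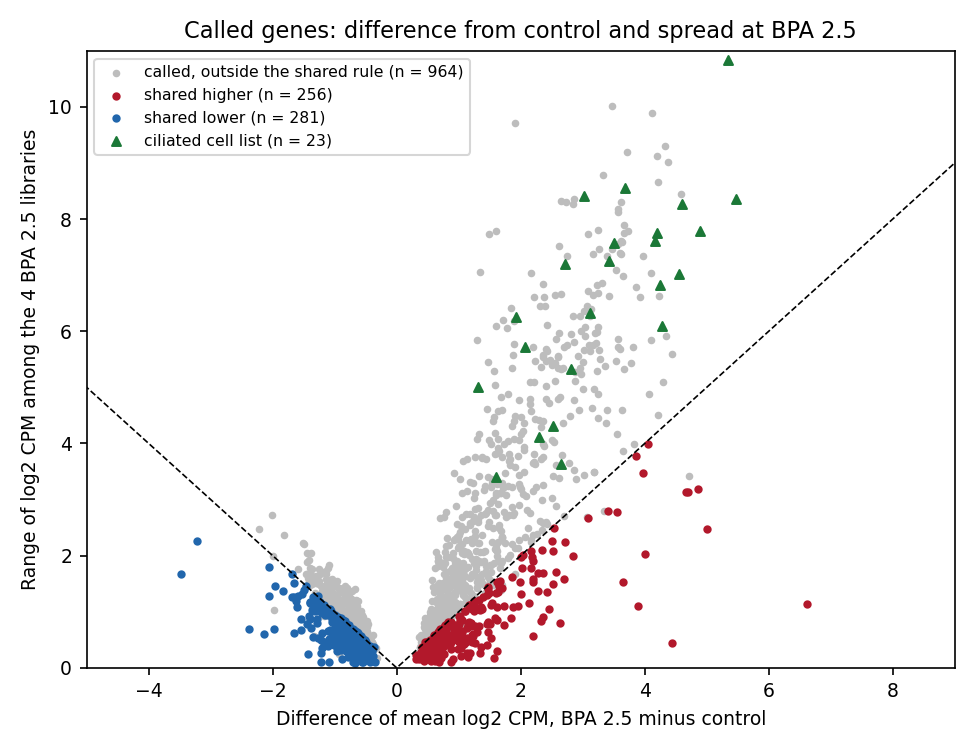
Each point is a called gene, placed by the difference of mean log2 CPM between the 4 BPA 2.5 and the 4 control libraries (x axis) and by the range of log2 CPM among the 4 BPA 2.5 libraries (y axis); dashed lines mark a range equal to the difference. The 256 shared higher and 281 shared lower genes lie under the lines, and the 23 ciliated cell genes (triangles) all lie above them.

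Without BPA 2.5 libraries 1 and 3, all 256 and all 281 shared genes kept the sign of their fold change, but 47 and 100 of them were still called. That fit called 104 genes higher and 297 lower, so that 74.1% of its calls were lower, against 38.3% with all libraries. Single libraries moved the counts too. Genes called higher and lower numbered 373 and 221 without control library 3, 604 and 354 without control library 2, 587 and 434 without control library 4, 384 and 302 without BPA 2.5 library 1, and 561 and 410 without BPA 2.5 library 3. Shared genes numbered 91 and 140 without control library 3, 169 and 204 without BPA 2.5 library 1, 558 and 570 without library 2, and 535 and 596 without library 4. Over the 8 fits that left out a single library, 85 of the 256 and 138 of the 281 shared genes were called every time.

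Genes of the estrogen response that changed were mostly lower. Of 24 tested members of the list, 5 were called lower and 1 higher, and all 5 lower calls were shared (list median log2 fold change -0.32), against 4.39% of all genes called lower and 7.06% higher. The 1 higher call (4.17%) is below the share over all genes. S100g (gene identifier 24249), the epithelial calcium-binding protein, was at 42.1, 44.9, 101 and 203 CPM in the 4 BPA 2.5 libraries against 761, 721, 1068 and 493 CPM in the controls. Every exposed library lay below every control (log2 fold change -2.96 ± 0.79, adjusted p = 0.0163). Igf1 (24482), the stromal growth factor, was at 80.1, 105.3, 104 and 129.8 against 238, 702, 469 and 355 CPM. The exposed libraries lay close together and below the lowest control, library 1 (log2 fold change -2.07 ± 0.43, adjusted p = 0.00393). Pgr (25154), the progesterone receptor, was at 108, 122, 89.8 and 181 against 224, 326, 223 and 286 CPM (log2 fold change -1.08 ± 0.35, adjusted p = 0.045). The remaining calls lower were the chemokine genes Ccl7 and Ccl12, and the call higher was Mybl1, a transcription factor gene, whose groups overlapped (22.9, 7.08, 14.2 and 6.31 against 7.33, 6.66, 5.07 and 4.11 CPM).

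Other estrogen-linked genes did not pass. Esr1 was at 177, 143, 130.5 and 160.4 CPM against 188, 144, 107 and 147 CPM (log2 fold change 0.06 ± 0.22, adjusted p = 0.883), and Esr2, the second estrogen receptor gene, was below 1 CPM in all 8 libraries. Complement C3, an estrogen-induced gene of the epithelium, spread over 1176, 2293, 2154 and 5342 CPM at BPA 2.5 and 8098, 229, 2988 and 2858 CPM in controls (log2 fold change -0.37 ± 0.67, adjusted p = 0.767). Lactoferrin, Ltf, had a log2 fold change of 1.87 ± 0.99 with an adjusted p of 0.23. Greb1 was not analysed here. Of 19 tested genes of steroid metabolism, 2 (10.5%) were called higher and 2 (10.5%) lower, against 7.06% and 4.39% of all genes. Sts, which frees steroids from their sulfates, rose in every exposed library (27.9, 21.9, 28.8 and 31.4 against 14.7, 10.9, 11.3 and 11.3 CPM, log2 fold change 1.19 ± 0.24, adjusted p = 0.00355). Hsd17b11, a 17-beta-hydroxysteroid dehydrogenase gene, rose less (log2 fold change 0.68 ± 0.21, adjusted p = 0.0313), and Akr1c14, a 3-alpha-hydroxysteroid dehydrogenase gene, was called lower with overlapping groups (40.2, 78.4, 37.2 and 32.6 against 55.2, 123, 129.6 and 66.2 CPM). The other call lower was Hsd17b7, which is also in the list of cholesterol synthesis and was shared.

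The estrogen-response calls rested on few libraries: of the 24 genes, 1 was called lower without control library 3 or BPA 2.5 library 1, and 0 without BPA 2.5 libraries 1 and 3. The call of S100g was lost without control library 3 or BPA 2.5 library 1 (largest adjusted p 0.067), and without BPA 2.5 libraries 1 and 3 together (log2 fold change -2.63, adjusted p = 0.189). Igf1 was called in each of the 8 fits without a single library (largest adjusted p 0.0213) and was lost only without libraries 1 and 3 together (log2 fold change -1.91, adjusted p = 0.0601). Pgr lost its call in 9 of 14 alternatives, 7 of them fits without a single library. The call of Mybl1 was lost without control library 2, 3 or 4 or BPA 2.5 library 1 or 3, and that of Hsd17b11 without control library 2 or 4 or BPA 2.5 library 1 or 2. Akr1c14 lost its call without control library 2 or 3 or BPA 2.5 library 1, 3 or 4, and Hsd17b7 without control library 2 or 4 or BPA 2.5 library 3. Sts was called in all 14 alternatives (log2 fold change 1.12 to 1.29).

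The insulin-like growth factor axis moved in both directions. Its 15 tested genes include the ligands, their receptors and the binding proteins that carry or withhold the ligands. Besides the fall of Igf1, 5 members were called higher and 3 of these were shared, against 7.06% of all genes called higher. Igfbp1 (25685), a binding protein of decidual and liver cells, was at 2.35, 9.85, 3.73 and 9.94 CPM against 0.0862, 0.148, 0.652 and 0.209 CPM, with 15 control counts in all (log2 fold change 4.49 ± 1.30, adjusted p = 0.0251). Igfbp3, the main carrier of Igf1 in blood, was at 143, 88.7, 138 and 49.0 against 30.5, 23.5, 29.7 and 38.9 CPM (log2 fold change 1.77 ± 0.37, adjusted p = 0.004). Irs2, the substrate that couples the receptors to the kinase cascade, was at 104.8, 178, 79.8 and 64.7 against 33.7, 42.5, 22.97 and 30.6 CPM (log2 fold change 1.72 ± 0.41, adjusted p = 0.00845). Igfbp5, a binding protein held in the matrix, was called higher with all 4 exposed libraries above the controls, but with 2256 CPM in library 2 and 403 to 709 CPM in the others. Igf2r, the scavenger receptor of Igf2, rose less (log2 fold change 0.59 ± 0.16) and its groups overlapped. The receptor genes Igf1r and Insr had log2 fold changes of 0.72 ± 0.25 and 0.68 ± 0.23 and did not pass (adjusted p = 0.056 and 0.0513). The call of Igfbp1 was lost under limma voom (adjusted p = 0.371) and without each control library in turn (largest adjusted p 0.0711), and was kept without BPA 2.5 libraries 1 and 3. Igfbp3 was lost without those 2 (log2 fold change 1.16, adjusted p = 0.124), and Irs2 was kept without them (log2 fold change 1.91, adjusted p = 0.0283). Igf2r was lost without control library 3 or BPA 2.5 library 1. Of the 15 genes, 3 were called higher without control library 2 or 4, 2 without control library 3 and 1 with the 2 groups alone.

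Keratins of stratified epithelium appeared in all 4 exposed libraries. Of 17 tested genes of stratified squamous epithelium, 5 (29.4%) were called higher, all of them shared, and 0 lower. Over all genes 7.06% were called higher and 1.92% were shared higher. Krt5 (369017), the basal keratin, was at 10.96, 24.4, 14.99 and 20.01 CPM against 0.172, 0, 0 and 0.0696 CPM. The controls held 3 Krt5 counts in all, and the ratio of summed levels was 307, 95% counting interval 104.8 to 1492. Krt14, its partner keratin, was at 2.92, 3.23, 3.20 and 4.01 CPM, with all 3 control counts in library 4 (ratio 59.4, 95% counting interval 20.04 to 291). Calml3, a calmodulin-like gene of epithelium, was at 9.76, 3.54, 7.93 and 1.66 CPM against 2 control counts (ratio 154, 95% counting interval 42.5 to 1281). Serpinb2, a protease inhibitor of squamous cells, was at 0 in all controls and so at least 8.11-fold higher, taking a floor of 3 counts in a mean library. Krt10, a suprabasal keratin already present in the controls, was at 9.57, 4.31, 9.39 and 4.91 against 2.07, 2.96, 3.70 and 2.37 CPM (log2 fold change 1.34 ± 0.37). All 8 tested keratins of the list were above control and 3 passed. The genes of the basal program that did not pass included Tp63, its master transcription factor, at 3.87, 6.77, 3.13 and 3.44 CPM against 6.04, 17.7, 3.84 and 17.4 CPM (log2 fold change -1.39 ± 0.75, adjusted p = 0.236). The list median was 1.34 as fitted and 0.83 with the 2 genes without control counts at their bound.

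The adjusted p of Krt5 was 0.00429 and its call was lost only under limma voom. Krt14 (adjusted p = 0.0163) was lost without control library 2 or 3, under limma voom, and without BPA 2.5 libraries 1 and 3 (adjusted p = 0.0601). The call of Krt10 was lost without control library 1 or 4 or BPA 2.5 library 1 or 3. Calml3 was called in all 14 alternatives. Of the 17 genes, 3 were called without control library 2, 3 or 4 or BPA 2.5 library 1. The summed level of the 17 genes overlapped between the groups (97.3, 98.5, 109 and 178 against 97.5, 43.2, 182 and 96.7 CPM). Of 19 tested genes of the ordinary luminal and glandular epithelium, 0 were called higher and 1, Grhl3, lower (5.26%, against 4.39% of all genes called lower). Under limma voom 6 of these were called higher and 2 lower, and leaving out BPA 2.5 library 2 gave 3 higher and 1 lower. Krt8 was at 239, 163, 312 and 621 CPM against 423, 238, 342 and 542 CPM and Epcam at 352, 213, 396 and 309.6 against 387, 164, 424 and 364 CPM.

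Genes of the respiratory chain were lower through all 5 complexes. The chain passes electrons through complexes I to IV and ATP synthase, complex V, uses the proton gradient. Of 74 nuclear-encoded subunits tested, 38 were called lower and 0 higher, 20 were shared, and 73 lay below control (median log2 fold change -0.65), against 4.39% of all genes called lower. By complex, the calls lower were 15 of 34 in complex I, 3 of 4 in complex II, 3 of 9 in complex III, 7 of 11 in complex IV and 10 of 16 in complex V. The summed level of the 74 genes was 5611, 5319, 6237 and 4720 CPM at BPA 2.5 against 6700, 9699, 9194 and 7885 CPM in the controls. The groups did not overlap, and the lowest control, library 1, lay nearest the exposed libraries.

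Within complex I, Ndufb8, an accessory subunit, was at 50.4, 41.8, 49.2 and 44.7 CPM against 71.9, 150.2, 125 and 104 CPM (log2 fold change -1.28 ± 0.20, adjusted p = 0.00261). Ndufb6, another accessory subunit, was at 7.41, 5.24, 7.46 and 8.16 against 14.8, 27.5, 32.7 and 18.5 CPM (log2 fold change -1.72 ± 0.37). Of the core subunits of the same complex, Ndufv1, which binds the substrate NADH, had a log2 fold change of -0.18 ± 0.19 and Ndufs7 one of 0.39 ± 0.34, and neither passed. In complex IV, Cox7b (303393), a small structural subunit, was at 21.9, 18.5, 34.1 and 14.2 against 46.0, 79.9, 98.7 and 60.03 CPM (log2 fold change -1.68 ± 0.29, adjusted p = 0.00261). Cox5b, a regulatory subunit, was at 27.9, 33.7, 35.4 and 26.96 against 44.4, 75.0, 84.7 and 69.2 CPM (log2 fold change -1.14 ± 0.20). In complex V, Atp5mk, a small membrane subunit, fell from 17.9, 41.7, 51.6 and 25.6 to 9.95, 5.16, 12.3 and 4.97 CPM (log2 fold change -2.08 ± 0.45), and Atp5po, part of its stalk, was at 91.7, 62.4, 110.4 and 63.0 against 118, 203, 195 and 157 CPM (log2 fold change -1.04 ± 0.19). The catalytic subunit Atp5f1b had a smaller log2 fold change (-0.37 ± 0.12, adjusted p = 0.0388). Slc25a5, the carrier that exchanges ATP for ADP across the inner membrane, also fell (129, 152, 126 and 105.4 against 213, 331, 302 and 233 CPM, log2 fold change -1.07 ± 0.18). Ndufb6, Ndufb8 and Slc25a5 were called in all 14 alternatives, and Cox7b, Cox5b, Atp5mk and Atp5po in all but the fit of the 2 groups alone. Of the 74 genes, 27 to 40 were called lower without a single library (27 without control library 3), 37 without BPA 2.5 libraries 1 and 3, and 2 with the 2 groups alone.

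**Figure D2:**
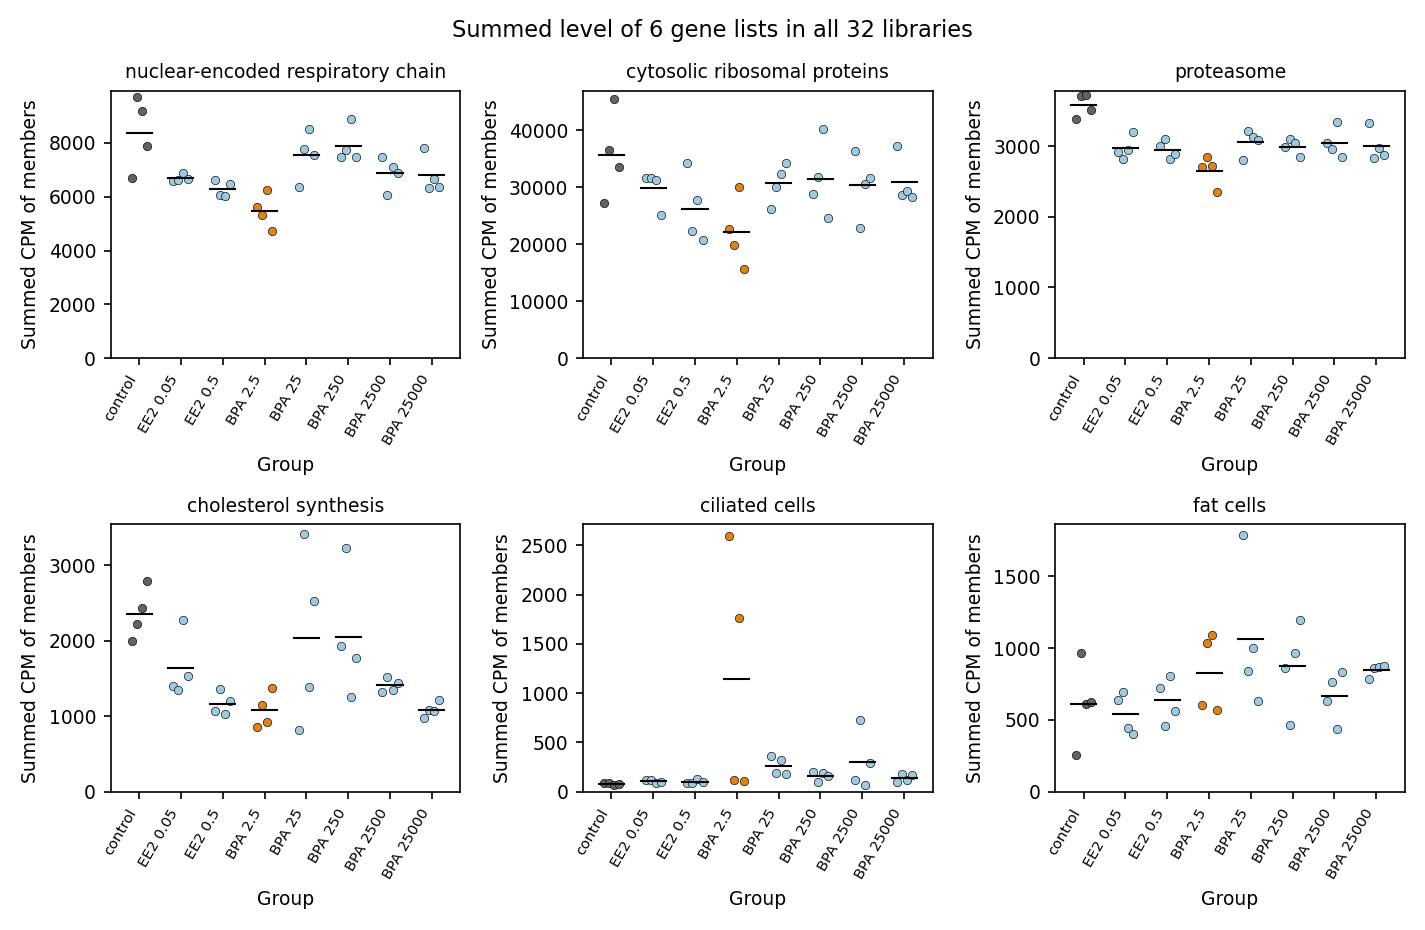
Summed CPM of the tested members of 6 gene lists (y axes, from 0) in each of the 32 libraries, by group (x axes), with BPA 2.5 in orange, control in grey and lines at the group means. The respiratory chain, proteasome and cholesterol sums of the 4 BPA 2.5 libraries lie below all 4 controls, the ribosomal sums overlap, and the ciliated cell sum is high in 2 of the 4 BPA 2.5 libraries.

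Ribosomal protein genes lay lower too. All 77 tested genes of the cytosolic ribosome were below control, 40 (51.9%) were called lower and 0 higher, and 10 were shared (median log2 fold change -0.74). Over all genes 4.39% were called lower and 2.11% were shared lower. The calls lower were 20 of 45 in the large subunit and 19 of 31 in the small subunit. Rpl22l1, a paralog of a large-subunit protein, was at 50.3, 41.2, 56.1 and 20.3 CPM against 95.9, 177, 259.9 and 124 CPM (log2 fold change -1.97 ± 0.34, adjusted p = 0.00261). Rps29, of the small subunit, was at 286, 271, 370.5 and 155 against 497, 1002, 1270 and 699 CPM (log2 fold change -1.68 ± 0.37) and Rpl39, at the exit tunnel, at 139.9, 180.1, 204 and 83.5 against 256, 497, 675 and 418 CPM (log2 fold change -1.61 ± 0.34). Rps27l, which lies outside the list of standard subunits, fell as well (log2 fold change -1.60 ± 0.33) and was called in all 14 alternatives. The summed level of the 77 genes was 22600, 19920, 29980 and 15680 CPM at BPA 2.5 and 27160, 36460, 45440 and 33570 CPM in the controls, so that exposed library 3 overlapped control library 1. Ribosomal protein genes have many processed pseudogenes, and how reads shared with those were counted is not given in the sources used here. Of the 77 genes, 11 were called lower without control library 3, 23 without BPA 2.5 library 1, 27 without BPA 2.5 library 4, 42 without BPA 2.5 libraries 1 and 3, and 1 with the 2 groups alone.

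Of 70 mitochondrial ribosomal proteins, 11 (15.7%) were called lower and 0 higher, 7 of them shared (median -0.35). Over all genes 4.39% were called lower and 2.11% were shared lower. Mrpl35 was at 24.1, 22.1, 25.4 and 18.99 against 30.6, 39.1, 43.9 and 39.4 CPM (log2 fold change -0.76 ± 0.17) and Mrps14 at 11.3, 8.24, 15.5 and 7.33 against 22.4, 23.5, 27.97 and 19.9 CPM (log2 fold change -1.15 ± 0.27). The proteasome, which degrades ubiquitin-tagged proteins, had 19 of 34 members (55.9%) called lower and 0 higher, with 6 shared (median -0.50). Of its catalytic core 10 of 14 subunits were called, and of the regulatory particle 9 of 20. Psmb3, a core subunit, was at 43.7, 40.6, 43.6 and 29.1 against 58.2, 76.1, 79.4 and 68.8 CPM (log2 fold change -0.85 ± 0.17, adjusted p = 0.00357), and Psmd12, of the regulatory particle, at 63.9, 47.3, 58.4 and 47.7 against 74.6, 94.7, 102 and 82.8 CPM (log2 fold change -0.70 ± 0.13). The summed proteasome level was 2703, 2844, 2714 and 2345 CPM at BPA 2.5 and 3376, 3705, 3717 and 3505 CPM in the controls, without overlap. Proteasome genes called lower numbered 7, 9 and 12 when control libraries 3, 2 and 4 were left out in turn, and 12 without BPA 2.5 libraries 1 and 3. Mitochondrial ribosomal genes called lower numbered 4, 6 and 7 when the same control libraries were left out, 5 without BPA 2.5 library 1, 7 without BPA 2.5 library 4 and 7 without libraries 1 and 3. With the 2 groups alone, 0 genes of either list were called.

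Genes that were lower at BPA 2.5 tended to be short. The genomic span of a gene, from start to end in the RefSeq annotation of GRCr8, had a median of 14719 bases among the shared lower genes, 26953 among the shared higher genes and 22609 over all genes tested. Of the 4408 genes with the shortest spans, up to 12805 bases, 6.44% were called lower and 5.76% higher. Of the 4407 with the longest, from 38952 bases, 2.31% were called lower and 8.37% higher. The median span was 6250 bases in complex IV, 6752 bases in complex V, 3270 bases in the large and 2571 bases in the small ribosomal subunit. The part of gene length in these results was not tested.

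Cholesterol synthesis was lower along most of the pathway. The pathway runs from acetyl-CoA through mevalonate to squalene, and from squalene through lanosterol to cholesterol. Of 22 tested genes, 12 (54.5%) were called lower and 0 higher, 9 of them shared, and 20 lay below control (median log2 fold change -1.02). Over all genes 4.39% were called lower and 2.11% were shared lower. Up to squalene 5 of 8 enzymes were called lower, and from squalene 7 of 11. Hmgcs1 (29637), which makes the precursor of mevalonate, was at 73.6, 90.7, 79.9 and 127 CPM against 155, 331, 257 and 287 CPM (log2 fold change -1.47 ± 0.35, adjusted p = 0.00756). Idi1, which isomerizes the isoprenoid unit, was at 134, 348, 170.1 and 184 against 765, 462, 702 and 938 CPM (log2 fold change -1.78 ± 0.49). Msmo1 (140910), the sterol C4-methyl oxidase, was at 42.0, 40.6, 43.8 and 48.2 against 81.9, 129.5, 144 and 126 CPM, with a narrow spread in the exposed libraries (log2 fold change -1.46 ± 0.25, adjusted p = 0.00261). Sc5d, which introduces a double bond late in the pathway, was similarly even (21.9, 23.4, 21.7 and 22.2 against 32.6, 51.9, 59.0 and 51.8 CPM, log2 fold change -1.13 ± 0.23). Dhcr7, the last reductase, was at 5.13, 9.16, 6.60 and 14.3 against 20.5, 26.7, 21.4 and 22.4 CPM (log2 fold change -1.37 ± 0.33).

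The enzymes Mvk, Pmvk, Lss and Sqle did not pass, with log2 fold changes of 0.22, -0.06, 0.24 and -0.35, nor did the regulator Srebf2 (log2 fold change -0.38 ± 0.19). The summed level of the 22 genes was 855, 1150, 923 and 1381 CPM at BPA 2.5 and 2002, 2218, 2436 and 2790 CPM in the controls, without overlap. Msmo1 and Sc5d were called in all 14 alternatives. Without BPA 2.5 libraries 1 and 3 only these 2 of the 22 stayed called, with a list median of -0.81. Calls lower in the list numbered 6 without control library 2 or 4, 8 without control library 3, 5 without BPA 2.5 library 1, 4 without library 3, and 3 with the 2 groups alone. The call of Idi1 was also lost without control library 4 or BPA 2.5 library 1 or 3. Fasn, the fatty acid synthase gene, was also among the shared lower genes (88.3, 81.8, 75.8 and 119.7 against 149, 182, 155 and 143 CPM, log2 fold change -0.78 ± 0.24), chosen after its values were seen.

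Promoters are shown for some genes described above, from the cholesterol and respiratory chain lists and, with Sts, from the shared higher genes. Each window runs from 250 bases before to 50 bases after the RefSeq transcription start in GRCr8, a later build than the rn5 build of the counts, and is printed 5′ to 3′ on the gene's own strand with the searched motif in capitals. In Msmo1 (chr16:29746863-29747162, plus strand) and Hmgcs1 (chr2:53382054-53382353, plus strand) it is the CCAAT box with its flank, ATTGGC or its reverse complement. In Cox5b (chr9:46417587-46417886, plus strand) it is the ETS core CCGGAAG, and in Atp5po (chr11:44657434-44657733, minus strand) the NRF1 palindrome, GCGCA and GCGC with 1 base between. In Sts (chrX:46102510-46102809, plus strand) it is the forkhead core GTAAACA.
Msmo1: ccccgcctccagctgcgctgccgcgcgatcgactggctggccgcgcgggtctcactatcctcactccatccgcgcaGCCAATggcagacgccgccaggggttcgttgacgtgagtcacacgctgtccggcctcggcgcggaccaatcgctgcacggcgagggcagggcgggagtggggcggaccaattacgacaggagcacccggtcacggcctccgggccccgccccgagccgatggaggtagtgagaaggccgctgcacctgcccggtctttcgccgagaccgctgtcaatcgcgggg
Hmgcs1: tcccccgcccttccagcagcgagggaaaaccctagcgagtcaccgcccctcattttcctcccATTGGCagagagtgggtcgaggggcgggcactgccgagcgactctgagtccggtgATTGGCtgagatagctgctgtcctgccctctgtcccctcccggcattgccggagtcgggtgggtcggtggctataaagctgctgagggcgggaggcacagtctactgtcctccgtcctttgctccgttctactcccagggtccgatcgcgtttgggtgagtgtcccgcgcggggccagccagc
Cox5b: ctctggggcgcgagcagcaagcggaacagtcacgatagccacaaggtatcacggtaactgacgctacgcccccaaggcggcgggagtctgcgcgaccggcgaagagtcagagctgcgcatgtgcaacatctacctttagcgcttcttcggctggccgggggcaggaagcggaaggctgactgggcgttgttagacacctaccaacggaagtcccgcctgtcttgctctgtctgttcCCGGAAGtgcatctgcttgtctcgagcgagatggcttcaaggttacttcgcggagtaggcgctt
Atp5po: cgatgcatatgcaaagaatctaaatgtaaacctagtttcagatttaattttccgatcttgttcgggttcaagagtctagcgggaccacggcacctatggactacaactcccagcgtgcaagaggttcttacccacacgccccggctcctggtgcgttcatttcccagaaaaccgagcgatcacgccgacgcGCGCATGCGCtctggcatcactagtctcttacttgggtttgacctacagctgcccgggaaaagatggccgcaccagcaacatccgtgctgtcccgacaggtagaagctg
Sts: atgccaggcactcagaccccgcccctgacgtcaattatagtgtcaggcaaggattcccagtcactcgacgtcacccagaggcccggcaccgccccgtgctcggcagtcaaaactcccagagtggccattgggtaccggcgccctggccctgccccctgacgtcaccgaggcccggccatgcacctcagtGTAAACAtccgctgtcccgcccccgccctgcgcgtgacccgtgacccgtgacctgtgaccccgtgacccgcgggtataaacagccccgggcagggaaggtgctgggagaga

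Promoter windows were at hand for 10688 of the 13312 genes tested, for 199 of the 256 shared higher and for 241 of the 281 shared lower genes, and 10 motifs were searched on both strands. The longer CCAAT box, as in Msmo1 and in 2 copies in Hmgcs1, was in 14 of 16 cholesterol promoters (87.5%) and in 18.1% of all promoters. Those 14 include Lss, Mvk and Srebf2, which were not called. The ETS core, as in Cox5b, was in 21 of 65 respiratory chain promoters (32.3%), in 58 of the 241 shared lower promoters (24.1%) and in 16.1% of all. It was also in 10 of 30 proteasome promoters (33.3%) and 18 of 61 cytosolic ribosomal promoters (29.5%). The NRF1 palindrome, as in Atp5po, was in 13 of the 65 (20%), in 40 of the 241 (16.6%) and in 8.95% of all. The forkhead core, as in Sts, was in 15 of the 199 shared higher promoters (7.54%), 2 of the 241 shared lower promoters (0.83%) and 2.35% of all. The sterol regulatory element, TCACNCCAC, was in 0 of the 16 cholesterol windows and 1.19% of all, and the palindromic estrogen response element, GGTCA and TGACC with 3 bases between, was in 1 of the 10688. The short CCAAT box (CCAAT, which the longer one contains) was in 38.7% of shared higher, 38.6% of shared lower and 37.3% of all promoters. The E box (CACGTG) was in 10.1%, 9.13% and 8.97%, the D box (TTATGNAA) in 2.51%, 2.49% and 1.88%, and the steroid hormone element (GNACA and TGTNC with 3 bases between) in 0.5%, 0.41% and 0.29%. A match is a description of letters in a window and shows no bound factor.

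The largest shared increases beyond the lists included genes of several kinds. Ak5, an adenylate kinase gene best known from brain, was at 12.5, 111, 12.9 and 39.3 CPM against 0.172, 2.29, 1.59 and 1.18 CPM (log2 fold change 5.03 ± 1.07, adjusted p = 0.00429). Scn9a, a voltage-gated sodium channel gene, was at 85.0, 14.6, 42.4 and 7.52 against 0.862, 2.96, 0.942 and 1.95 CPM (log2 fold change 4.47 ± 0.76, adjusted p = 0.00261), highest in libraries 1 and 3 but above all controls in the other two as well. Vipr2, a receptor of vasoactive intestinal peptide, was at 11.9, 7.47, 10.5 and 5.67 against 2.33, 1.04, 1.09 and 1.67 CPM (log2 fold change 2.54 ± 0.65). Tshr, the thyrotropin receptor, was at 160.5, 118, 95.4 and 37.5 against 29.1, 33.2, 4.42 and 22.6 CPM (log2 fold change 2.20 ± 0.60). The cyclic nucleotide phosphodiesterases Pde4a (32.1, 21.3, 26.4 and 13.3 against 6.38, 8.96, 9.42 and 8.91 CPM, log2 fold change 1.47 ± 0.22, adjusted p = 0.00189) and Pde1b (log2 fold change 2.16 ± 0.51) rose too. Rgs11, a regulator of G protein signalling, was at 75.6, 34.4, 69.6 and 29.1 against 12.9, 9.99, 5.36 and 13.2 CPM (log2 fold change 2.33 ± 0.49).

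Gsn, gelsolin, which severs actin filaments, was at 777, 588, 738 and 451 CPM against 260.0, 228, 155 and 259 CPM (log2 fold change 1.502 ± 0.23, adjusted p = 0.00189). Ptpru, a receptor tyrosine phosphatase, was at 142, 95.7, 143 and 76.2 against 10.4, 29.2, 29.8 and 22.8 CPM (log2 fold change 2.31 ± 0.46, adjusted p = 0.00355), and Vegfd, a ligand of lymphatic endothelium, at 14.6, 36.2, 11.1 and 13.4 against 1.47, 7.47, 2.25 and 3.90 CPM (log2 fold change 2.31 ± 0.61). Pamr1 and the matrix protease Adamts5 had log2 fold changes of 2.81 ± 0.72 and 2.09 ± 0.54, with the highest value of each in library 2. Pnma8b (2.34 ± 0.47), Macrod1 (2.26 ± 0.63) and Pbld1 (2.16 ± 0.56) complete the 16 largest together with Krt5, Igfbp1 and Cd163. Cd163, a scavenger receptor of macrophages, was at 7.29, 8.31, 5.86 and 2.68 against 0, 1.11, 2.25 and 1.53 CPM (log2 fold change 2.28 ± 0.67). Gsn and Ptpru were called in all 14 alternatives. Calls were lost without control library 3 for Vipr2, Vegfd, Tshr, Pamr1 and Macrod1, without control library 2 or 4 for Cd163 and Macrod1, and without control library 1 for Cd163. They were lost without BPA 2.5 library 1 for Tshr, Cd163 and Macrod1, without library 2 for Pamr1 and without library 3 for Macrod1. Ak5 and Pamr1 were not called under limma voom. Without BPA 2.5 libraries 1 and 3, Ak5, Scn9a, Pde4a, Vegfd, Pamr1 and Adamts5 stayed called and Vipr2, Tshr, Pde1b, Rgs11, Cd163, Pnma8b, Macrod1 and Pbld1 did not.

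**Figure D3:**
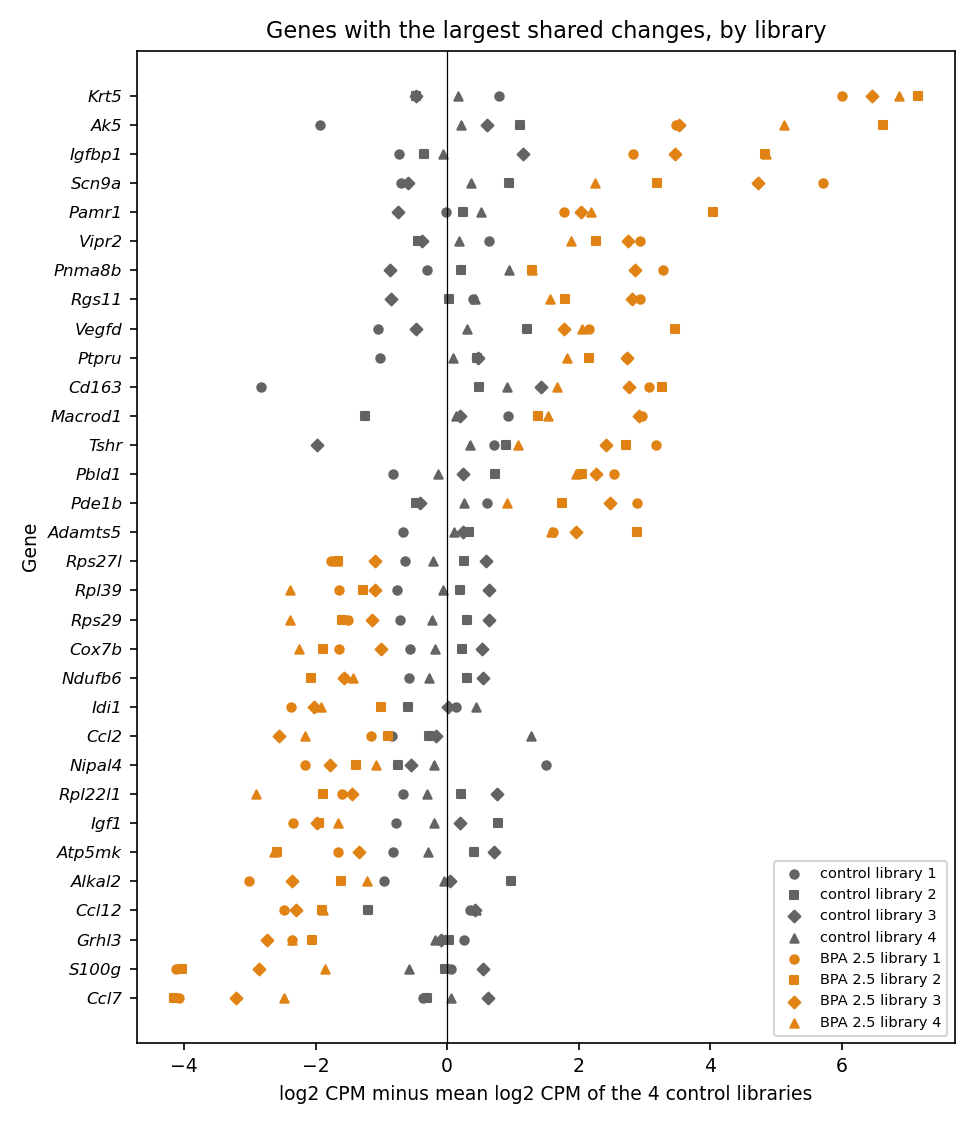
Log2 CPM (with a prior count of 2) of the 16 largest shared increases and the 16 largest shared decreases, as the difference from the mean of the 4 control libraries (x axis), with BPA 2.5 libraries in orange and control libraries in grey. In each gene the 4 orange points lie on 1 side of the 4 grey points, as the rule required.

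On the lower side, 3 chemokine genes that attract monocytes were called. Of the 26 tested chemokines 0 were called higher, but 14 lay above control and 12 below (median log2 fold change -0.097). Over all genes 4.39% were called lower. With DESeq2, 2 chemokines were called higher and 3 lower, and under limma voom 4 were called in each direction. Ccl7 was at 4.69, 4.46, 8.73 and 14.5 CPM against 63.0, 65.7, 126 and 84.5 CPM (log2 fold change -3.38 ± 1.06, adjusted p = 0.0355). Ccl12 was at 0.634, 1.00, 0.733 and 1.02 against 5.26, 1.70, 5.51 and 5.57 CPM (log2 fold change -2.40 ± 0.74), and Ccl2 at 2.66, 3.23, 0.933 and 1.27 against 3.36, 5.03, 5.43 and 15.04 CPM (log2 fold change -1.84 ± 0.55). All 3 calls were lost without control library 3 or 4, without BPA 2.5 library 1 or 3, and without libraries 1 and 3 together. Grhl3, an epithelial transcription factor, was at 1.77, 2.23, 1.33 and 1.78 against 11.47, 9.77, 8.99 and 8.50 CPM (log2 fold change -2.44 ± 0.59, adjusted p = 0.00845). It was called in each fit without a single library and lost without BPA 2.5 libraries 1 and 3 together (log2 fold change -2.27, adjusted p = 0.119). Alkal2, a ligand of the ALK receptor, and Nipal4, a magnesium transporter of epithelium, had log2 fold changes of -2.08 ± 0.64 and -1.92 ± 0.52. Nipal4 was highest in control library 1 (16.7 CPM, against 3.41 to 5.01 CPM in the other controls), and its call was lost without that library or without BPA 2.5 library 1 or 3. The call of Alkal2 was lost without control library 2, 3 or 4 or BPA 2.5 library 1 or 3.

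Among the genes with the smallest p, Rbm3, a cold-inducible RNA-binding protein, was at 119, 128, 153 and 106 CPM against 205, 379, 389 and 279 CPM (log2 fold change -1.31 ± 0.22, adjusted p = 0.00261). Arpc5, a subunit of the actin-branching Arp2/3 complex, was at 132, 162, 168 and 147 against 257, 379, 456 and 344 CPM (log2 fold change -1.24 ± 0.21, adjusted p = 0.00261). Eif2s2, a subunit of the translation initiation factor that brings the initiator tRNA, was at 125, 145, 129 and 91.7 against 206, 280.3, 292 and 221 CPM (log2 fold change -1.03 ± 0.16, adjusted p = 0.00261). Emc6, of the membrane insertase of the endoplasmic reticulum, was at 17.9, 15.1, 19.5 and 16.8 against 28.02, 34.1, 38.1 and 27.3 CPM (log2 fold change -0.88 ± 0.15). Rbm3 and Arpc5 were called in all 14 alternatives, and Eif2s2 and Emc6 in all but the fit of the 2 groups alone.

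In all, 12 shared higher and 18 shared lower genes were called in all 14 alternatives. Besides Calml3, Gsn, Ptpru and Sts, those that rose were Htr1b, Rnf39, Plxdc2, Ccdc163, Vsig10, Uap1l1, Zfp608 and Cul9, with log2 fold changes from 0.88 (Cul9) to 4.45 (Htr1b). Htr1b, a serotonin receptor, was at 6.27, 2.46, 4.73 and 2.10 CPM against 0.259, 0.148, 0.145 and 0.139 CPM, with 9 control counts. Those that fell, besides Arpc5, Msmo1, Ndufb6, Ndufb8, Rbm3, Rps27l, Sc5d and Slc25a5, were Sec61b, Gcsh, Rpl27, Coq10b, Lgals1, Ssr4, Wdr83os, Ran, Uchl3 and Cops3, with log2 fold changes from -1.56 (Sec61b) to -0.73 (Cops3). Lgals1, a galectin of stroma and smooth muscle, was at 135, 179.5, 209.7 and 235 against 348, 605, 444 and 454 CPM, and Ssr4, at the translocon of the endoplasmic reticulum, at 33.4, 33.1, 31.1 and 32.1 against 53.2, 82.0, 104 and 73.3 CPM. The genes of this paragraph that are new to the text were chosen after their values were seen.

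Signalling and hormone-response lists held few calls, in the progesterone and Wnt lists near the 7.06% of all genes called higher. Among progesterone-response genes, 2 of 19 (10.5%) were called higher: Zbtb16, a target of progesterone and glucocorticoids (39.7, 35.4, 41.0 and 22.1 against 5.43, 20.9, 11.8 and 11.1 CPM, log2 fold change 1.49 ± 0.47), and the activin inhibitor Fst (log2 fold change 1.62 ± 0.52). Of 23 bone morphogenetic protein genes, 4 were called higher and 1 lower. The target Id3 (log2 fold change 1.27 ± 0.35), the ligand Bmp4 (log2 fold change 1.51 ± 0.41), Fst and the receptor Bmpr1b were higher, and the antagonist Chrd was lower (log2 fold change -1.002 ± 0.29). Of 30 Wnt genes, 2 (6.67%) were called higher, Wnt5b, a ligand (log2 fold change 0.99 ± 0.27), and Lgr5, a receptor and stem cell marker (34.1, 163, 39.8 and 57.7 against 26.99, 23.5, 15.3 and 14.1 CPM). Cry2, a repressor of the circadian clock, rose in every exposed library (173, 185, 142 and 109.7 against 61.5, 87.0, 50 and 68.0 CPM, log2 fold change 1.19 ± 0.28, adjusted p = 0.00786), as did the immediate early gene Jund (159, 232, 132 and 154 against 110.5, 88.2, 83.0 and 82.6 CPM, log2 fold change 0.89 ± 0.18, adjusted p = 0.00396). Cry2 was the only call among 15 circadian clock genes (6.67%, list median 0.197). Jund was the only call among 20 immediate early genes (5%, list median -0.176). Both shares lay below the 7.06% of all genes called higher. Mki67, a marker of dividing cells, was at 19.9, 24.2, 44.9 and 53.0 CPM against 51.0, 17.5, 127 and 31.5 CPM and did not pass (adjusted p = 0.402). Of the genes in this paragraph, Jund stayed called without each single library and without BPA 2.5 libraries 1 and 3, and Cry2 lost its call only without those 2 together or with the 2 groups alone. Lgr5 lost its call without control library 2, 3 or 4 or BPA 2.5 library 2, and the others (Zbtb16, Fst, Id3, Bmp4, Bmpr1b, Chrd and Wnt5b) without at least 3 of the 8 single libraries.

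Of 16 steroid receptors and coregulators, 3 (18.8%) were called higher besides the lower Pgr (6.25%). Over all genes the shares were 7.06% higher and 4.39% lower. Esrrg, an orphan receptor related to the estrogen receptors, was at 14.8, 3.31, 11.9 and 0.701 CPM against 1.55, 0.814, 1.16 and 2.92 CPM (log2 fold change 2.24 ± 0.66). Nr3c2, the mineralocorticoid receptor, was at 27.9, 22.9, 19.9 and 8.86 against 11.8, 8.14, 5.94 and 10.4 CPM (log2 fold change 1.13 ± 0.34), and Ncoa1, a coactivator, at 172, 126, 125 and 86.9 against 92.2, 77.6, 69.8 and 86.3 CPM (log2 fold change 0.64 ± 0.20). None of the 3 was shared, and each lost its call without at least 5 single libraries and without BPA 2.5 libraries 1 and 3. Of 21 genes of the unfolded protein and heat shock response, 3 (14.3%) were called lower, against 4.39% of all genes. Pdia6, a disulfide isomerase of the endoplasmic reticulum, was at 260.3, 267, 278 and 339.7 against 468, 516, 722 and 559.5 CPM (log2 fold change -0.98 ± 0.22) and was shared, while the mitochondrial chaperonins Hspd1 and Hspe1 had log2 fold changes of -0.51 ± 0.15 and -1.26 ± 0.33 and were not. The call of Hspd1 was lost without control library 2 or 3 or BPA 2.5 library 3 or 4, and that of Hspe1 without control library 3. Without BPA 2.5 libraries 1 and 3 Pdia6 and Hspd1 lost their calls (adjusted p = 0.0784 and 0.0537) and Hspe1 kept it (0.00647).

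**Figure D4:**
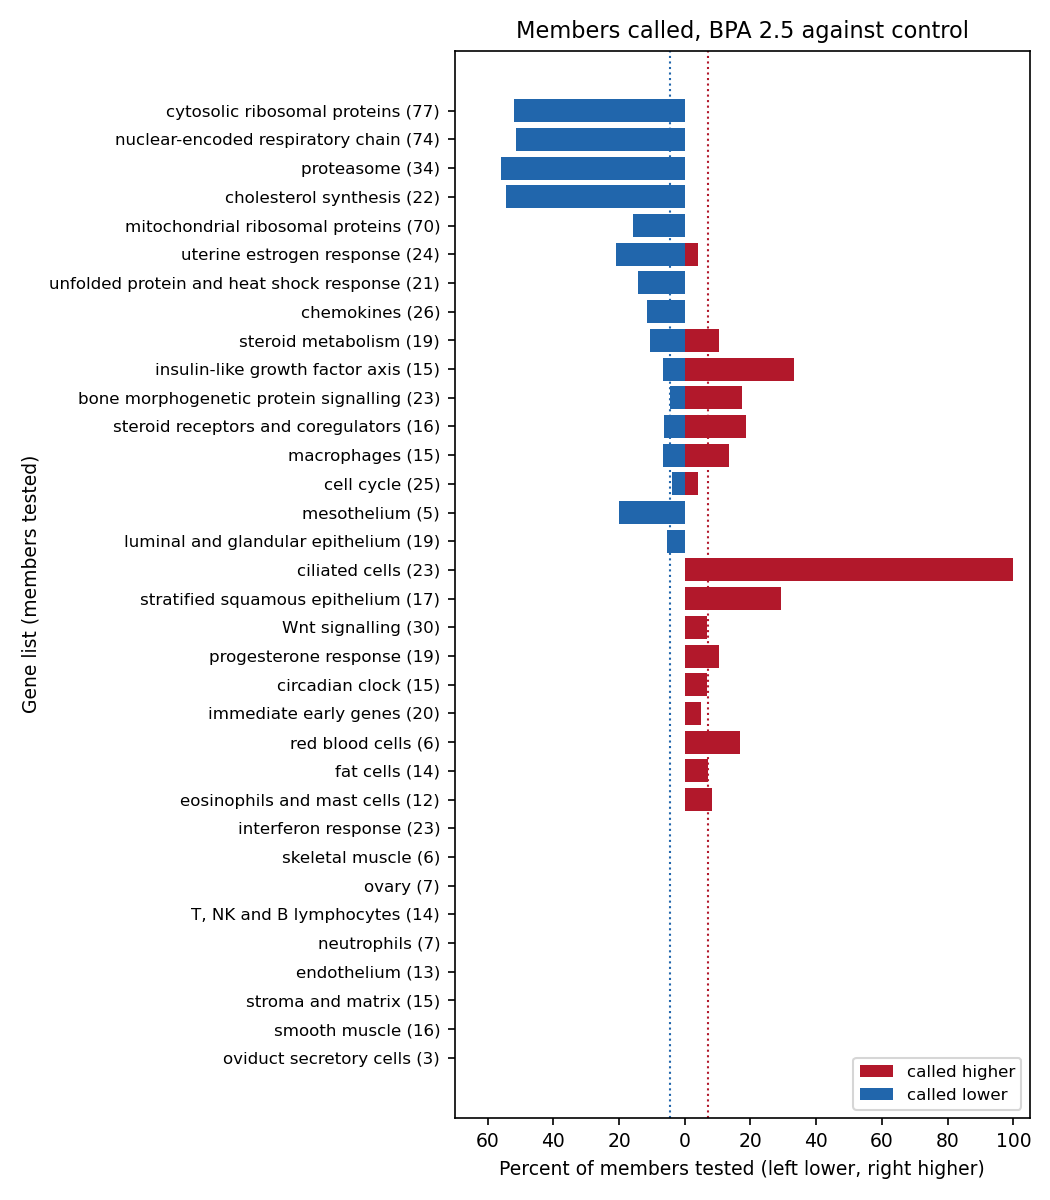
Share of each list's tested members (x axis, percent, with lower calls to the left and higher calls to the right) that were called at BPA 2.5, for 34 gene lists with the number tested in brackets. Dotted lines mark the shares over all genes tested, 7.06% higher and 4.39% lower, and the respiratory chain, cytosolic ribosomal, proteasome and cholesterol lists each reach at least 51.4% lower while the ciliated list reaches 100% higher.

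Lists for the other cells of the uterus moved with the groups to different degrees. Of 16 smooth muscle genes, 0 were called and 15 lay below control (median -0.35), with summed levels of 14470, 27450, 16500 and 35910 CPM at BPA 2.5 and 23870 to 44840 CPM in controls. Acta2, smooth muscle actin, was at 3780, 8899, 3452 and 8828 CPM against 6641, 14750, 6348 and 9178 CPM (adjusted p = 0.249), lowest in libraries 1 and 3. The smooth muscle calls depended on the setting: 14 of the 16 were called lower under limma voom (median -0.73) and 6 without BPA 2.5 library 4 (median -0.67). Over all genes tested, 7.06% were called higher and 4.39% lower. All 14 fat cell genes lay above control (median 1.501), with summed levels of 604, 1038, 1094 and 569 CPM against 256 to 964 CPM. Of these, 1 was called, Pnpla2 (7.14%, near the share over all genes). All 12 eosinophil and mast cell genes lay above control (median 1.92), with summed levels of 89.8 to 138 CPM against 21.4 to 187 CPM. Of these, 1 was called (8.33%, also near that share), the protease gene Mcpt1l1 of mast cells (log2 fold change 1.84 ± 0.45). Of 15 macrophage genes, Cd163 and Gpnmb were called higher (13.3%) and Cpvl lower (6.67%). The call of Gpnmb was lost without control library 2, 3 or 4 and without BPA 2.5 libraries 1 and 3, and that of Cpvl without those 2 (adjusted p = 0.146). The calls of Pnpla2 and Mcpt1l1 were lost without BPA 2.5 libraries 1 and 3 too, and that of Pnpla2 also without control library 2 or 4 or BPA 2.5 library 3. Single calls fell to Bub1 (lower, 4% of 25 cell cycle genes, besides Aurkb), Slc4a1 (higher, 16.7% of 6 red blood cell genes) and Upk1b (lower, 20% of 5 mesothelial genes), and each was lost without at least 4 single libraries. The lists of stroma (15 tested), endothelium (13), lymphocytes (14), neutrophils (7), ovary (7), skeletal muscle (6) and interferon response (23) held 0 calls in the main fit. With limma voom, 7 of the 15 stroma genes were called lower and 1 higher (median -0.62). It also called 1 gene higher in each of the lymphocyte and ovary lists and 1 lower in the interferon list. In endothelium and in skeletal muscle it called 1 gene in each direction. Under limma voom 8 of the 14 fat cell genes and 7 of the 12 eosinophil and mast cell genes were called higher, and with BPA 2.5 library 4 left out 4 fat cell genes were. The part of changes in cell content in the gene results was not tested. Without BPA 2.5 libraries 1 and 3 the fat cell median was 0.09 with 0 called, and the smooth muscle median was -0.04, while the respiratory chain and ribosomal medians were -0.98 and -1.14.

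The same 4 libraries were set against the mean of the other 4 BPA doses, a contrast that uses no control library. It called 1622 genes higher at BPA 2.5 (12.2% of those tested) and 851 lower (6.39%). These counts were 486 and 400 without BPA 2.5 library 1, 768 and 528 without library 3, 2194 and 1391 without library 2, and 1526 and 551 without library 4. Of the shared genes, 146 of 256 passed on the higher side and 202 of 281 on the lower side, with 0 passing in the opposite direction. Both contrasts hold the same BPA 2.5 libraries, whose values had chosen these genes. Scn9a, Pnma8b, Macrod1, Rgs11, Tshr and Krt5 were higher than the mean of the other doses, with log2 differences from 1.61 (Tshr) to 4.82 (Krt5). Gsn (log2 difference 0.97 ± 0.16), Pde4a (1.11 ± 0.16) and Sts (0.76 ± 0.17) were as well. The BPA 25000 libraries overlapped those of BPA 2.5 for Gsn (331 to 529 against 451 to 777 CPM) and for Sts (16.9 to 31.5 against 21.9 to 31.4 CPM). Cox7b (-1.37 ± 0.24), Rps27l (-1.61 ± 0.28), Ndufb6 (-1.55 ± 0.32) and Msmo1 (-0.85 ± 0.21) were lower than the mean of the other doses. For Igf1 (-0.85 ± 0.34, adjusted p = 0.0836), S100g (-1.73 ± 0.66, adjusted p = 0.0661), Pgr (-0.59 ± 0.29, adjusted p = 0.157) and Igfbp1 (-1.70 ± 0.84, adjusted p = 0.159) the difference from the other doses did not pass. By list, 32 of 74 respiratory chain, 32 of 77 cytosolic ribosomal, 12 of 34 proteasome and 2 of 22 cholesterol genes were called lower than the mean of the other doses.

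Levels over the doses differed between genes. Igf1 was at 441 ± 198 CPM in control (SD, n = 4), 172 ± 58.1 CPM in EE2 0.05, 161 ± 43.6 CPM in EE2 0.5, 104.7 ± 20.3 CPM in BPA 2.5, 229 ± 103 CPM in BPA 25, 225 ± 63.7 CPM in BPA 250, 205 ± 111 CPM in BPA 2500 and 119.6 ± 66.3 CPM in BPA 25000. All 7 exposed means lay below the control mean, and BPA 2.5 and BPA 25000 were the lowest with ranges that overlapped. S100g was at 761 ± 237 CPM in control (SD, n = 4), 293 ± 112 CPM in EE2 0.05, 137 ± 26.6 CPM in EE2 0.5, 97.7 ± 75.2 CPM in BPA 2.5, 378 ± 381 CPM in BPA 25, 424 ± 399 CPM in BPA 250, 337 ± 232 CPM in BPA 2500 and 206 ± 159 CPM in BPA 25000. The control range, 493 to 1068 CPM, lay above the ranges of both EE2 doses, BPA 2.5 and BPA 25000, while the BPA 25 libraries ran from 45.2 to 773 CPM and the BPA 250 libraries from 62.4 to 994 CPM. Krt5 was at 0.0605 ± 0.0815 CPM in control (SD, n = 4), 92.6 ± 126 CPM in EE2 0.05, 97.6 ± 71.2 CPM in EE2 0.5, 17.6 ± 5.86 CPM in BPA 2.5, 1.40 ± 0.647 CPM in BPA 25, 0.170 ± 0.120 CPM in BPA 250, 0.680 ± 0.392 CPM in BPA 2500 and 0.852 ± 0.665 CPM in BPA 25000, so that the BPA 2.5 libraries, at 10.96 CPM or more, lay above all libraries of the other 4 BPA doses, at 2.31 CPM or less, while the EE2 0.05 libraries ran from 0 to 266 CPM. Msmo1 was at 120.3 ± 26.7 CPM in control (SD, n = 4), 66.1 ± 19.9 CPM in EE2 0.05, 48.3 ± 4.13 CPM in EE2 0.5, 43.6 ± 3.32 CPM in BPA 2.5, 113 ± 47.2 CPM in BPA 25, 122 ± 32.3 CPM in BPA 250, 62.7 ± 12.1 CPM in BPA 2500 and 45.2 ± 11 CPM in BPA 25000, with control, BPA 25 and BPA 250 at the top and EE2 0.5, BPA 2.5 and BPA 25000 within overlapping ranges at the bottom. Each exposed group was read against the same 4 control libraries, so that the groups' distances from control are not independent.

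**Figure D5:**
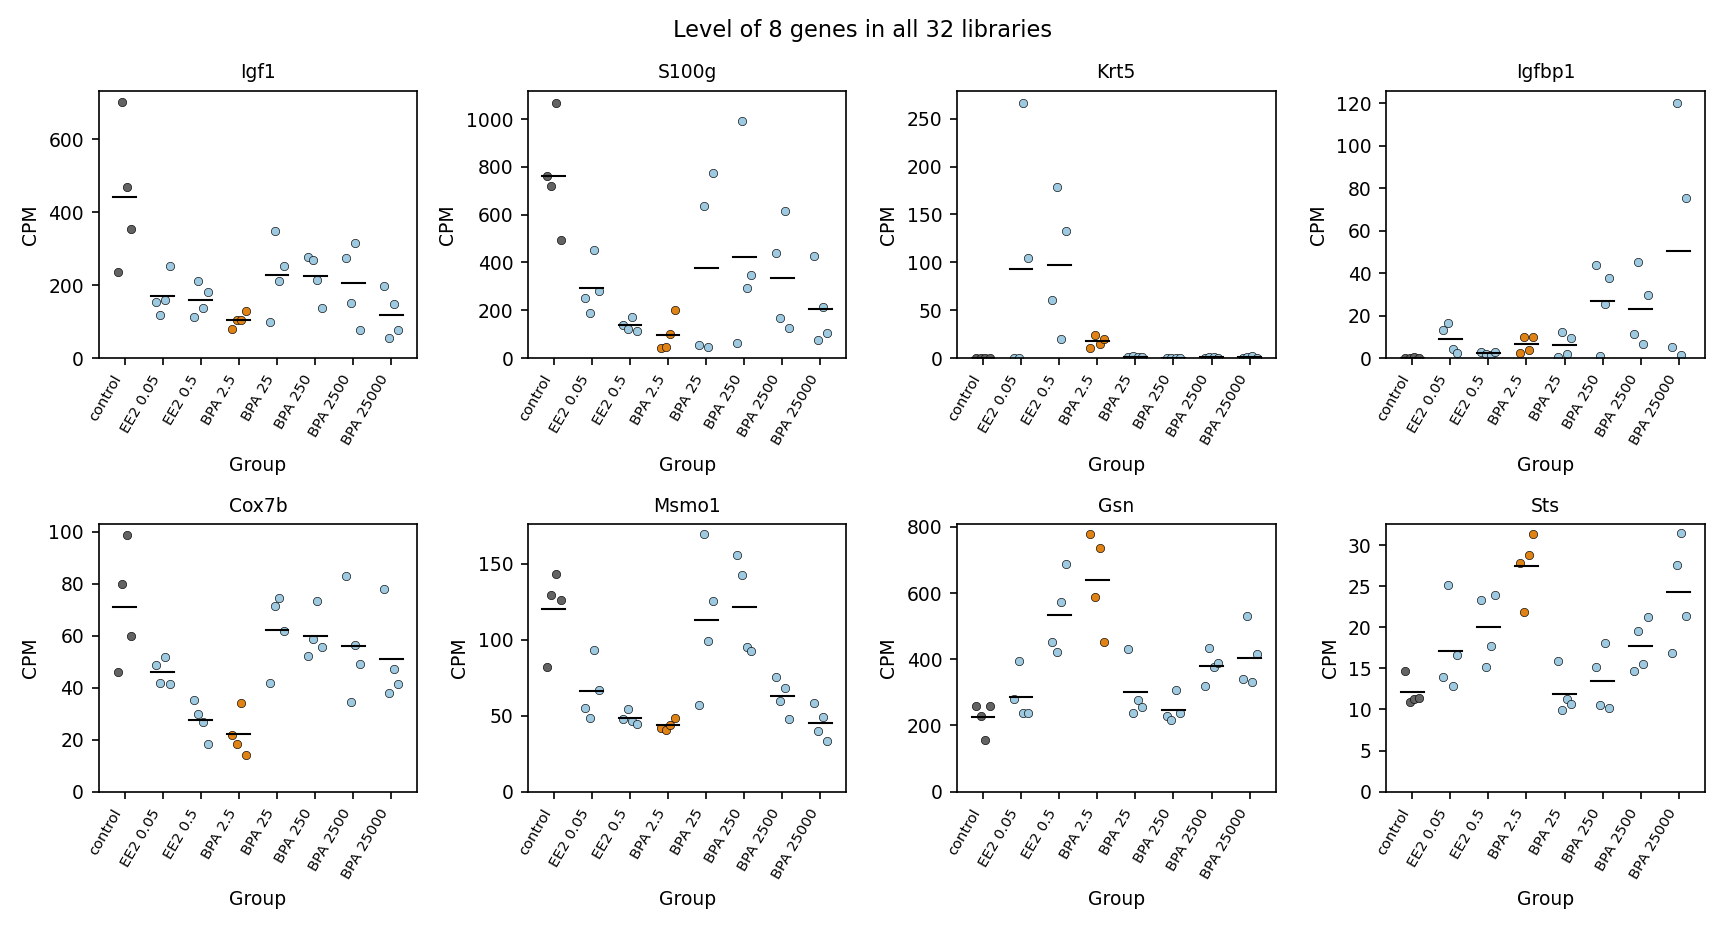
CPM of 8 genes (y axes, from 0) in each of the 32 libraries by group (x axes), with control in grey, BPA 2.5 in orange and lines at the group means. For Igf1, S100g, Cox7b and Msmo1 the 4 BPA 2.5 libraries lie below all controls, for Krt5, Igfbp1, Gsn and Sts above them, and Krt5 is highest in libraries of the EE2 groups.

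The shared genes as a set were nearest to control at BPA 25 and 250. The median log2 ratio of group means to control over the 256 shared higher genes was 0.49 and 0.64 at EE2 0.05 and 0.5, and 0.33, 0.24, 0.48 and 0.64 at BPA 25, 250, 2500 and 25000. Over the 281 shared lower genes it was -0.35 and -0.54 at the EE2 doses, and -0.11, -0.08, -0.33 and -0.45 at these BPA doses. BPA 2.5 itself was at 1.02 and -0.79, as the choice of genes fixes, and all groups share the 4 controls. The group mean at BPA 2.5 was the most extreme of the 8 in 177 of the 256 and 241 of the 281 genes. The choice of genes by the same libraries favours this too, and the count was not made over all genes tested. The median correlation of a library with the others of its group was 0.956 to 0.970 among the controls and 0.896 to 0.912 at BPA 2.5.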

How the data were processed

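Total RNA of 32 uterus samples was made into libraries by Illumina protocols and sequenced, per the labels. Per the submitters' processing notes the tools were bcl2fastq, TopHat and edgeR and the genome build was rn5, without versions; whether counting used strand is not given in the sources used here. The authors deposited raw read counts per gene, one column per library. Rows are named by gene identifiers, and 17167 of 17327 were matched to symbols in RefSeq (GRCr8); the 160 unmatched rows held 1.82% of counts and stayed in the tests. Total counts per library lay between 11777809 and 24661856.

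Counts were tested with edgeR 4.0.16 in R 4.3.3 by its quasi-likelihood test with TMM scaling, over all 8 groups (24 residual degrees of freedom). filterByExpr (minimum count 10, minimum total 15) kept 13312 genes, and p-values were adjusted by Benjamini and Hochberg over all of these. CPM are counts scaled to the TMM-adjusted library size (edgeR's cpm), and log2 CPM use a prior count of 2. Folds against 1 to 3 control counts carry exact 95% counting intervals, and those against 0 a floor of 3 counts; both cover counting error only. The method was tested on simulated counts. DESeq2 1.42.0, limma 3.58.1 (voom with sample weights), other scaling, no filter, a fit of the 2 groups alone, and leaving out libraries were alternatives.

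The genes named by rule were the 16 largest shared changes in each direction (with a mean log2 CPM of 1 or more) and the 12 smallest by p. The rule added up to 4 called genes per list and a panel of estrogen-response and marker genes. Some others are said to be chosen after their values were seen. Further list members, such as Igfbp5, Serpinb2, Tp63, Ndufv1 and Srebf2, were named outside the rule and are given without results over the alternatives. The comparison, the rule for shared genes and the 34 gene lists (808 genes) were chosen with earlier results of these data known. A few genes of these lists are not reported here by name.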

Additional observations from a re-analysis of the deposited data

Results flagged for a closer look

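Chance picks about 1 in 20 groups of 4 libraries as holding a library far from the rest, and of 86 groups examined 4 did: Ccl12 was at 1.7 CPM in control library 2, the lowest, Epcam at 165 CPM in the same library, the lowest, Rps27l at 26.9 CPM in BPA 2.5 library 3, the highest, and Krt14 at 0.209 CPM in control library 4, with 0 counts in the other 3 controls.

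For 18 of 43 genes examined (the largest shared changes and the panel), the BPA 2.5 libraries differed from the mean of the other 4 BPA doses at an adjusted p under 0.05 (edgeR). The largest shared changes were chosen by the values of these same BPA 2.5 libraries, which favours such differences. Over all genes tested, 12.2% were called higher and 6.39% lower than the mean of the other doses. The log2 difference was negative for Ccl12 (-1.79), Atp5mk (-1.77), Rpl22l1 (-1.67), Rps27l (-1.61), Ndufb6 (-1.55), Rps29 (-1.53), Ccl2 (-1.46), Rpl39 (-1.46), Cox7b (-1.37) and Idi1 (-1.31). It was positive for Tshr (1.61), Rgs11 (1.89), Macrod1 (2.06), Pnma8b (2.15), Scn9a (2.41), Krt14 (3.38), Foxj1 (3.44) and Krt5 (4.82). Foxj1, the regulator of motile cilia, was at 95.8, 0.308, 73.6 and 0.892 CPM in the 4 BPA 2.5 libraries, so that its difference came from libraries 1 and 3.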

How the results depend on the processing

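The p-values rest on 4 libraries a group, on a spread pooled over 8 groups, and on control library 3 and BPA 2.5 library 1 in particular; depth was 11777809 counts or more a library. No paired analysis was possible because the labels give the groups no shared replicate numbers. Under limma voom with sample weights 2364 genes were higher and 1739 lower than control, and 3084 and 2007 than at the other BPA doses. With only the groups compared in the fit, 33 were higher and 24 lower than control, the same numbers as shared (33 and 24), and 992 and 528 than at the other doses. Without BPA 2.5 libraries 1 and 3 the counts were 104 and 297 against control, 95 shared higher, and 142 and 274 against the other doses. Leaving out a single library gave 373 to 1227 higher, 221 to 772 lower, 91 to 558 shared higher and 140 to 596 shared lower, and 486 to 2194 and 400 to 1391 against the other doses. DESeq2 (1230 and 734), RLE scaling (960 and 551) and no filter (876 and 562) stayed within 1.5 times. Fold changes of single genes kept direction and call in 1169 gene and setting pairs, lost the call in 283, gained it in 2 and turned sign in 12, cause not tested. Those 12 were Epcam (0.0905 under voom, 0.0564 without control library 3, 0.0731 without BPA 2.5 library 2), C3 (0.436 without control library 1, 0.0877 without BPA 2.5 libraries 1 and 3), Esr1 (-0.0621 without control library 3, -0.013 without BPA 2.5 library 1), Mki67 (0.0906 without control library 3), Krt8 (0.0156 without BPA 2.5 library 2, 0.0063 without libraries 1 and 3), Aurkb (-0.777) and Bmpr1b (-0.131), both without libraries 1 and 3. With a single library left out the fold changes ran from -0.323 to 0.0731 for Epcam, -0.92 to 0.436 for C3, -0.0621 to 0.206 for Esr1, -0.99 to 0.0906 for Mki67 and -0.70 to 0.0156 for Krt8, none of which passed with all libraries.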

Other observations

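The gene groups described here were chosen after their values were seen. All 9 tested subunits of the Arp2/3 complex, which branches actin filaments, lay below control, 6 were called lower and 4 of these were shared (median log2 fold change -0.53), against 4.39% of all genes called lower and 2.11% shared lower. Arpc2 was at 121, 146, 138 and 155 CPM in the BPA 2.5 libraries against 193, 248, 232 and 226 CPM in the controls, and Arpc3 at 69.9, 69.4, 73.6 and 73.9 against 106, 101, 126 and 125 CPM, both without overlap of the groups.

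Of 28 tested genes of the protein entry machinery of the endoplasmic reticulum (translocon, signal sequence receptor, oligosaccharyltransferase and membrane insertase), 15 were called lower and 0 higher, and 9 were shared (median -0.62), beside the same shares over all genes. Sec61b, a translocon subunit, was at 23.7, 13.6, 24.9 and 15.4 against 39.0, 58.6, 82.5 and 49.5 CPM and Ssr1, of the signal sequence receptor, at 211, 219, 164 and 187 against 288, 454, 506 and 357 CPM.

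The 3 tested receptors of thyroid hormone and thyrotropin were called higher and shared, against 7.06% of all genes called higher and 1.92% shared higher. Each of the 3 lost its call in at least 1 of the 8 fits without a single library. Thra, the alpha receptor, was at 164, 185, 161 and 177 against 114, 123, 81.8 and 118 CPM (log2 fold change 0.65 ± 0.19, adjusted p = 0.0255). Thrb, the beta receptor, was at 29.97, 29.6, 27.2 and 13.7 against 10.3, 12.2, 4.35 and 8.36 CPM (log2 fold change 1.51 ± 0.40, adjusted p = 0.015), lowest of the 4 exposed in library 4, as was Tshr.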
